A study of Mus musculus with 14 samples.

Results

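The mouse Hox genes of clusters A to D were examined on 14 Affymetrix mouse arrays of sorted skeletal muscle precursor cells. The members were the genes of the platform annotation whose symbol is Hoxa, Hoxb, Hoxc or Hoxd followed by a number, without antisense transcripts. RefSeq lists 39 such genes, and 33 of them had at least 1 probe set of their own (a group of probes that measures 1 transcript), out of 18193 genes with such a probe set. Of the 33, 21 passed a filter on dim signal, among 13579 genes of the whole array that passed it. The filter asked for a value over the 40th percentile of the array on 4 or more of the 14, at any age, and no Hox gene passed through the arrays of 1 age group alone. All values below are log2 of the deposited intensities, and a difference of 1 on this scale is a doubling.

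The mice were of the C57BL/6 background, and no group carried a mutation, transgene or treatment label. There were 5 arrays of young cells (2 months), 4 of middle-aged cells (12 months) and 5 of aged cells (24 months). The cells were myofibre-associated cells sorted as CD45-, Ter119-, Sca-1-, CD29+ and Cxcr4+, which enriches for muscle stem cells, called satellite cells. The study set out to find transcripts that differ with age in these cells, in work on the circulating factor GDF11. The labels do not say whether the arrays came from separate animals or which muscles were taken, so p-values measure only the spread between these samples, which may be technical. In RNA of a sorted population, fewer cells of a type and less RNA per cell cannot be told apart. All 10 markers listed for satellite cells were measured, and 2 of them, Fgfr4 and Calcr, fell in aged against young cells by limma at an adjusted p under 0.05 (4.30% of all genes were called), with a median over the 10 of -0.52. Pax7 (aged minus young -0.50 ± 0.26, SE), CD29's gene Itgb1 (-0.12 ± 0.28) and Cxcr4 (-0.35 ± 0.23) did not pass. CD45's gene Ptprc lay above the 40th percentile on 0 arrays, and Sca-1's gene Ly6a had no probe set of its own.

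Hox genes encode homeodomain transcription factors that give cells their position along the body axis and the limb. They lie in clusters in which a gene's number gives its place: low numbers lie at the 3' end and act early and anteriorly, high numbers lie at the 5' end and act late and posteriorly. Genes of the same number in different clusters are paralogues. The posterior genes of clusters A and D pattern the segments of the limb, Hox proteins bind DNA together with TALE homeodomain cofactors, and adult cells often keep the Hox pattern of the place where they arose. In satellite cells, Hoxa9 is known from other work as a gene whose induction in activated old cells limits their function. GDF11, the ligand in the title of the study, is known in the embryo as a signal that turns on posterior Hox genes along the trunk.

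Promoter sequences (300 bases about the annotated start, RefSeq, GRCm38.p6) are shown for 3 Hox genes that were above the 40th percentile on all 14 arrays, because Hox promoters are known for their CpG content and these span a wide range of it. The start of Hoxa9 lies at chr6:52227321-52227620 on the minus strand with 4 CpG dinucleotides, that of Hoxd8 at chr2:74704365-74704664 on the plus strand with 6, and that of Hoxd9 at chr2:74697513-74697812 on the plus strand with 20. Each CpG is in capitals. 
Hoxa9 promoter: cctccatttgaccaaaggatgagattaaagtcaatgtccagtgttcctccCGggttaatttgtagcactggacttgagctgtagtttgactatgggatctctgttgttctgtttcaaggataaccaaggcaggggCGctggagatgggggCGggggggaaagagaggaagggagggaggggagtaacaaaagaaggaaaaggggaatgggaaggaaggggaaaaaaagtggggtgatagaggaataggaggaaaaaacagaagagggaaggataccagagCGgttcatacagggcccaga
Hoxd8 promoter: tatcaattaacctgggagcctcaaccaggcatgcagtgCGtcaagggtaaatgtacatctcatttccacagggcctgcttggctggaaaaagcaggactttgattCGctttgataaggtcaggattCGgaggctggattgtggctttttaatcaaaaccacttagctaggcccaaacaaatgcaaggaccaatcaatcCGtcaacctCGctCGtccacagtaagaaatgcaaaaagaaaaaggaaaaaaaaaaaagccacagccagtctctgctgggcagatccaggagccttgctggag
Hoxd9 promoter: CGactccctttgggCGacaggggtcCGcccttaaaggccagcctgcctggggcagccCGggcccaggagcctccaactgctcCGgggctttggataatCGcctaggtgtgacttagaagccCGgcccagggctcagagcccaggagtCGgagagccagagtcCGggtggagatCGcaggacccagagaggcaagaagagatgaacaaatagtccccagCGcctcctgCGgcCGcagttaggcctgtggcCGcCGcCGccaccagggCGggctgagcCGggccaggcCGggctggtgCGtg
RefSeq promoters were matched for 11 of the 21 Hox genes above the filter (12 promoters, 4 to 37 CpG, median 14.5) and for 8 of the 12 dim ones (9 promoters, 4 to 45, median 20). The median over all 32851 promoters was 7, and 94.6% of them held at least 1 CG. CpG counts of the promoters of genes with and without signal thus spanned nearly the same range.

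Several measures of the arrays moved with age or across it. Across the ages, the arrays also fell into 2 sets found from the values: set 1 held young 1, 3 and 4, middle-aged 2, 3 and 4 and aged 1 and 2, and set 2 held young 2 and 5, middle-aged 1 and aged 3, 4 and 5. The sets were the same when the Hox genes were left out. For the control transcripts Gapdh and Actb, the signal of 3' probe sets minus that of 5' probe sets (used below as the RNA quality covariate) was 4.31 ± 0.54 (SD, n = 5) in the young, 3.85 ± 0.25 (n = 4) in the middle-aged and 3.54 ± 0.51 (n = 5) in the aged group (a difference of -0.77 between aged and young, two-sided exact permutation p = 0.0714). The mean of the 9 tenocyte markers ran from 7.25 to 8.46 in the young, 9.63 to 10.91 in the middle-aged and 9.75 to 10.56 in the aged group. Of these markers, 7 rose in aged and 7 in middle-aged against young cells, beside 4.30% and 2.97% of all genes called. The mean of the 8 measured myofibre markers ran from 6.08 to 7.50, 7.01 to 8.26 and 8.11 to 9.39, and 7 rose in aged cells. Of other markers, 2 of 10 fibro-adipogenic (Dcn and Twist2) and 1 of 7 pericyte genes (Pdgfrb) rose, the 2 satellite cell genes named above and 1 of 5 endothelial genes (Tek) fell, and 0 of 5 leukocyte, 0 of 4 Schwann and 0 of 2 erythroid markers changed in aged against young cells. Beside 4.30% of all genes called, counts of 0 or 1 in such short lists are near the share of all genes. The part of these measures in the Hox values was not tested, apart from the fits with the RNA quality covariate or the array set.

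Hox transcripts of all 4 clusters were detected, but not along the whole of each. In cluster C, all 7 genes with their own probe set passed the filter, and 6 of them (Hoxc4, Hoxc5, Hoxc6, Hoxc8, Hoxc9 and Hoxc10) exceeded the 40th percentile on all 14 arrays, Hoxc5 by its second probe set. Cluster A followed with 6 of 9, of which Hoxa3, Hoxa5, Hoxa7, Hoxa9 and Hoxa11 were above on all arrays and Hoxa10 on 4. In cluster B 5 of 9 passed, but only Hoxb3 on all arrays, with Hoxb4 on 13, Hoxb2 on 8, and Hoxb7 and Hoxb13 on 6 each. In cluster D 3 of 8 passed: the neighbours Hoxd8 and Hoxd9 on all arrays and the terminal gene Hoxd13 on 5. Since some of these genes straddled the filter, a stricter 60th percentile was set beside it: 12 Hox genes then lay above it on at least 4 arrays, and 8 on all 14 (Hoxa5, Hoxa7, Hoxa9, Hoxc6, Hoxc8, Hoxc9, Hoxc10 and Hoxd9). None of these 8 was a gene of cluster B.

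**Figure D1:**
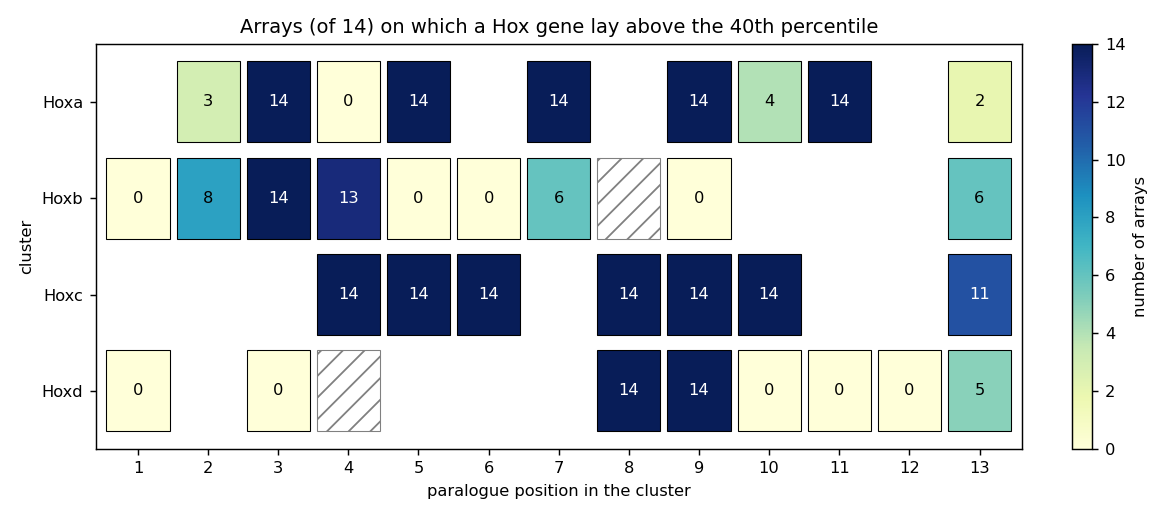
Each square is a Hox gene, placed by cluster (rows) and paralogue position (columns). The colour and the number give on how many of the 14 arrays a probe set of that gene exceeded the 40th percentile of its array. Hatched squares had only a probe set shared with a neighbour, and blank places have no gene measured here. Squares with 14 run through positions 4 to 10 of cluster C and are sparse in clusters B and D.

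By position, detection on all 14 arrays was densest in the middle of the clusters. Of 7 genes at positions 1 to 3, 3 passed the filter and 2 were over that percentile on every array. At positions 4 to 8 the numbers were 9 and 7 of 12, and at positions 9 to 13 they were 9 and 5 of 14. Of the paralogues at position 9, which mark the start of the posterior group, Hoxa9, Hoxc9 and Hoxd9 were above on all arrays and Hoxb9 on 0. At position 13, the end of the clusters, Hoxb13, Hoxc13 and Hoxd13 passed on 6, 11 and 5 arrays and Hoxa13 was above on 2. None of the position 13 genes was above on all arrays, and the percentile itself ran from 3.79 to 3.96 between arrays. Over the arrays, Hoxb13 ranged from 3.53 to 4.36, Hoxc13 from 3.76 to 4.55 and Hoxd13 from 3.65 to 4.20.

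Of the 12 genes that did not pass, 10 lay above the 40th percentile on 0 arrays: Hoxa4, Hoxb1, Hoxb5, Hoxb6, Hoxb9, Hoxd1, Hoxd3, Hoxd10, Hoxd11 and Hoxd12. The other 2 were Hoxa2, above on 3 arrays, and Hoxa13. A dim probe set bounds the signal and does not show that a transcript is absent. Hoxb8 and Hoxd4 had only probe sets shared with Hoxb7 and Hoxd3, so they have no value of their own here, and genes not listed with a probe set were not analysed here. Within cluster D the contrast between neighbours was wide: Hoxd9 ranged from 5.02 to 6.19 over the arrays, while Hoxd10, the next gene, stayed between 2.54 and 3.33, below the 40th percentile on every array. The levels of different probe sets also depend on their probes, so this pair is set against the percentile and not against each other.

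No Hox gene passed the test between ages. In aged against young cells 0 of 21 were called by limma at an adjusted p under 0.05. Of all 13579 genes 4.30% were called, so with 21 genes a count of 0 is near that share. The same count was 0 of 21 in middle-aged against young cells (all genes 2.97%), 0 of 21 in aged against middle-aged cells (all genes 0%), 0 of 21 for the late step minus the early step (all genes 0%) and 0 of 21 in the F test over the 3 ages (all genes 4.16%). At an unadjusted p under 0.05, Hox genes numbered 4 in aged against young (all genes 16.6%), 1 in middle-aged against young (all genes 16.3%), 1 in aged against middle-aged (all genes 9.62%), 0 for the difference of the steps (all genes 11.9%) and 2 in the F test (all genes 17.9%). An unequal-variance test per gene also called 0 Hox genes in each pairwise comparison. The lowest adjusted p in aged against young cells was that of Hoxc10 (0.0680).

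The intervals describe the measured signal of 1 probe set per Hox gene. The 95% interval of aged minus young lay within a 2-fold change either way for 18 of the 21 Hox genes, and within a 1.5-fold change for 14. The 3 exceptions to the first count were Hoxc5, Hoxc10 and Hoxd8. Among the 18, Hoxa3, Hoxa10, Hoxb2, Hoxb4, Hoxb7, Hoxb13, Hoxc13 and Hoxd13 lay above the 60th percentile on 0 arrays. A narrow interval or small difference in such dim signal does not bound a change of the transcript. Within 2-fold lay 20 intervals of middle-aged minus young and 19 of aged minus middle-aged. The median size of the difference, whatever its sign, was 0.14 over the 21 Hox genes and 0.19 over all genes, and 0 Hox genes but 3.60% of all genes differed by more than 1.

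**Figure D2:**
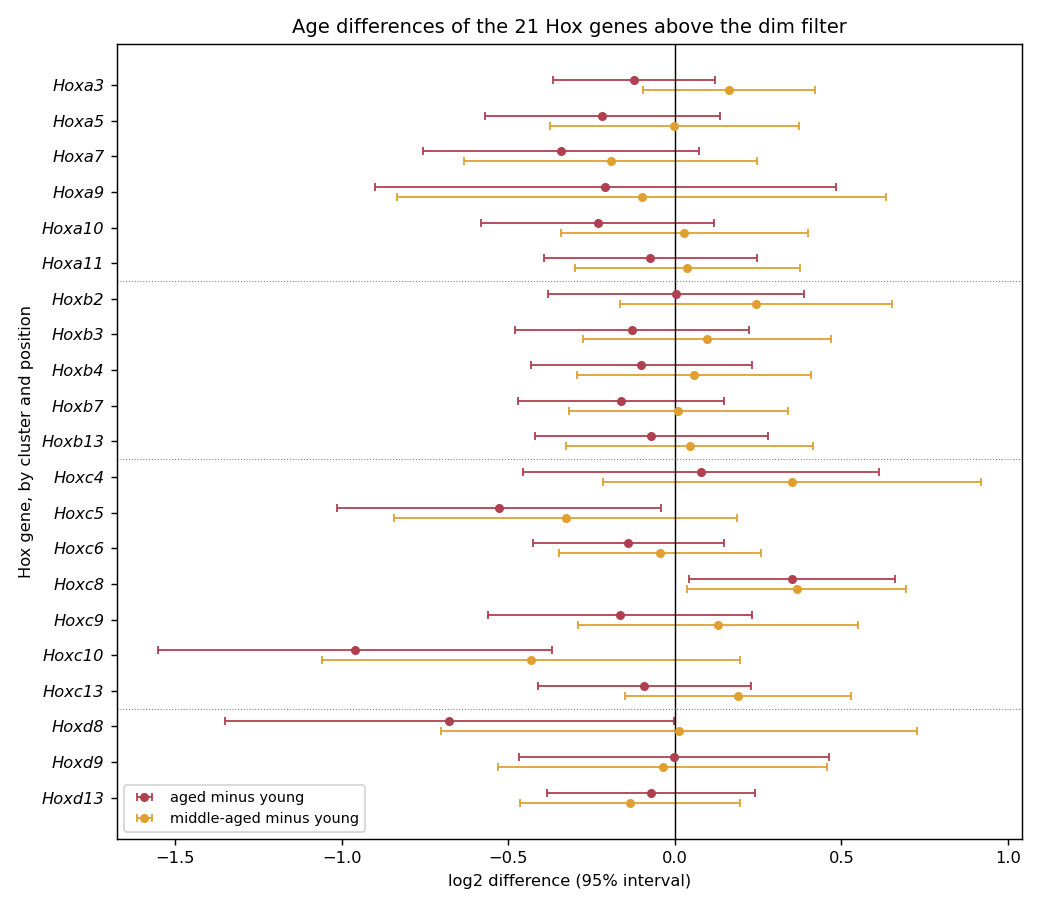
Each Hox gene above the dim filter has a point for its log2 difference from young cells, aged in red and middle-aged in yellow, with its 95% interval from limma; the vertical line marks no difference and dotted lines part the clusters. All but 3 of the 21 red points lie left of the line, with Hoxc10 farthest at -0.96, and Hoxc8 lies to the right at 0.35.

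Differences between aged and young cells were small and mostly downward. Of the 21 Hox genes, 18 had a lower mean in aged cells whatever the p, beside 58.1% of all genes, with a median of -0.13 (all genes -0.05). By cluster, 6 of 6 were lower in cluster A (median -0.21), 4 of 5 in B (-0.10), 5 of 7 in C (-0.14) and 3 of 3 in D (-0.07). The exceptions were Hoxb2, Hoxc4 and Hoxc8. In middle-aged cells 8 of 21 were lower than in young ones (all genes 56.6%), with a median of 0.03, so that 19 of 21 were lower in aged than in middle-aged cells (all genes 48.6%), with a median of -0.20. These comparisons share arrays, and Hox genes of a cluster are not independent of each other. The mean over the 21 genes was 5.42 ± 0.12 in the young, 5.44 ± 0.05 in the middle-aged and 5.23 ± 0.08 in the aged group. Within array set 1, 17 of 21 were lower in aged cells, and within set 2, 10 of 21, with 8 lower in both. The shares of all genes within the sets were not counted.

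Hoxc10 (Entrez 209448), a posterior gene known from the lumbosacral region and the hindlimb, had the widest difference between aged and young cells. It read 8.78, 7.86, 8.72, 8.08 and 7.82 in the young, 7.81, 7.26, 7.74 and 8.48 in the middle-aged and 6.93, 7.96, 6.98, 7.66 and 6.92 in the aged group. Of the aged arrays, 4 lay below every young array, but aged 2 lay above young 2 and 5, so the groups overlapped. The mean was 8.25 ± 0.47 (SD, n = 5) in young, 7.82 ± 0.50 (n = 4) in middle-aged and 7.29 ± 0.49 (n = 5) in aged cells, a difference between aged and young of -0.96 ± 0.28 (SE, 95% interval -1.55 to -0.37, 1.95-fold, adjusted p = 0.0680). It did not pass, except without the array aged 2 (-1.13 ± 0.27, adjusted p = 0.0343). Over all alternatives it ran from -1.13 to -0.65, with adjusted p from 0.0343 to 0.460, and it was -1.08 within array set 1 and -0.65 within set 2.

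Its neighbours in cluster C differed in direction among themselves. Hoxc8 (Entrez 15426), a gene of the thoracic trunk, read 5.74, 5.74, 5.51, 5.56 and 5.41 in the young, 6.19, 5.66, 6.11 and 5.87 in the middle-aged and 6.18, 6.05, 5.85, 6.03 and 5.62 in the aged group. All but 1 middle-aged and 1 aged array lay above the young ones. The difference of aged from young cells was 0.35 ± 0.15 (95% interval 0.04 to 0.66, adjusted p = 0.220) and that of middle-aged from young cells 0.37 ± 0.15 (adjusted p = 0.244). Hoxc5 read 5.18, 4.73, 4.69, 4.63 and 4.99 in the young, 5.32, 4.42, 4.30 and 4.02 in the middle-aged and 4.37, 4.58, 4.17, 4.65 and 3.81 in the aged group. Only aged 4 lay above the lowest young array, and the difference of aged from young cells was -0.53 ± 0.23 (95% interval -1.01 to -0.04, adjusted p = 0.250). Hoxc13, which is known from hair and nail, exceeded the 40th percentile on 11 arrays. It read 4.01, 3.86, 4.19, 4.26 and 3.90 in the young, 3.76, 4.55, 4.31 and 4.31 in the middle-aged and 4.08, 3.90, 4.05, 3.85 and 3.87 in the aged group, with aged minus young at -0.09 ± 0.15. The remaining genes of the cluster had aged minus young values of 0.08 ± 0.25 (Hoxc4), -0.14 ± 0.13 (Hoxc6) and -0.16 ± 0.19 (Hoxc9), the first with a middle-aged mean of 5.89 beside 5.54 in young and 5.61 in aged cells.

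**Figure D3:**
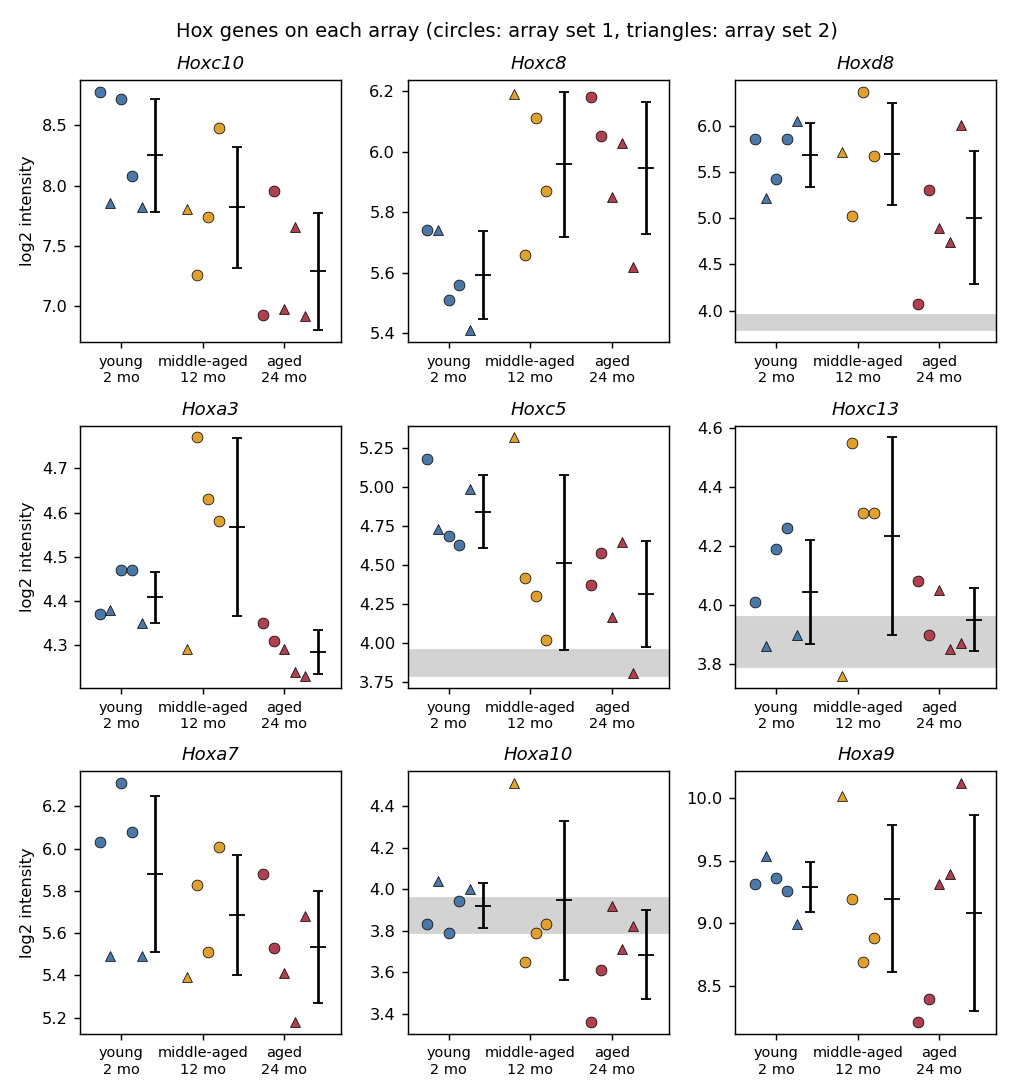
Each panel shows a Hox gene on the 14 arrays by age, in log2 intensity, with circles for array set 1 and triangles for set 2; bars give the mean and SD of each age. The grey band is the range of the 40th percentile over arrays (3.79 to 3.96). Hoxc10 drifts down with age with overlapping groups, the aged Hoxa3 values form a narrow band below the young ones, and the older Hoxa9 values part by array set.

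In cluster A, all 6 genes above the filter had a lower mean in aged than in young cells, and none passed the test. Hoxa3, an anterior gene of the pharyngeal region and neck, read 4.37, 4.38, 4.47, 4.47 and 4.35 in the young, 4.29, 4.77, 4.63 and 4.58 in the middle-aged and 4.35, 4.31, 4.29, 4.24 and 4.23 in the aged group. The closest pair, young 5 and aged 1, differed by less than the rounding of these values. It was the only Hox gene of 21 whose aged and young values did not overlap, while 5.45% of all genes did not overlap; in middle-aged against young cells the numbers were 0 and 8.70%, and in aged against middle-aged cells 0 and 2.50%. The gap was narrow: the means were 4.41 ± 0.06 in young and 4.28 ± 0.05 in aged cells (4.57 ± 0.20 in middle-aged ones), and the difference of -0.12 ± 0.11 had an adjusted p of 0.651. Its spread within groups (SD 0.114) was among the smallest of the array, at percentile 1.19 of all genes.

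Hoxa7, which patterns thoracic vertebrae, read 6.03, 5.49, 6.31, 6.08 and 5.49 in the young, 5.39, 5.83, 5.51 and 6.01 in the middle-aged and 5.88, 5.53, 5.41, 5.18 and 5.68 in the aged group. The young arrays of set 1 were the high ones, and the difference of aged from young cells was -0.34 ± 0.19 (adjusted p = 0.417). Hoxa10, a posterior gene of the limb and the lumbar region, hovered about the dim limit. It read 3.83, 4.04, 3.79, 3.94 and 4.00 in the young, 4.51, 3.65, 3.79 and 3.83 in the middle-aged and 3.36, 3.61, 3.92, 3.71 and 3.82 in the aged group, with aged minus young at -0.23 ± 0.16. Hoxa5, a gene of the neck and forelimb level, had -0.22 ± 0.17, and Hoxa11, which patterns the middle segment of the limb, -0.07 ± 0.15.

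Hoxa9 (Entrez 15405) stood out by the spread of its older arrays rather than by its means; its values are given because of that spread, seen after the fit. It read 9.31, 9.54, 9.36, 9.26 and 8.99 in the young, 10.02, 9.19, 8.69 and 8.88 in the middle-aged and 8.21, 8.39, 9.31, 9.39 and 10.12 in the aged group. The young arrays stayed within 8.99 to 9.54, while the lowest and the highest value of all arrays were both aged. The means were 9.29 ± 0.20, 9.19 ± 0.58 and 9.08 ± 0.79, with aged minus young at -0.21 ± 0.33 (95% interval -0.90 to 0.48, adjusted p = 0.810), and its SD within groups of 0.576 lay at percentile 90.9 of all genes. Hoxd8 came close to it, with an SD within groups of 0.559 at percentile 89.6. The order of the older arrays in Hoxa9 followed the array sets. Set 2 minus set 1 was -0.04 in young, 1.10 in middle-aged (1 array of set 2) and 1.31 in aged cells. Aged minus young was -1.01 within set 1 and 0.34 within set 2. Since the sets were found from the values and Hoxa9 followed them, the gap between them was not tested. For the same reason no p-value is given for Hoxa9 within a set. With the RNA quality measure in the fit, aged minus young was -0.62 ± 0.38 (adjusted p = 0.441), and the part of RNA quality in this spread was not tested further.

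In cluster D, Hoxd8 (Entrez 15437) read 5.86, 5.22, 5.43, 5.86 and 6.05 in the young, 5.72, 5.02, 6.37 and 5.67 in the middle-aged and 4.07, 5.31, 4.90, 4.74 and 6.01 in the aged group. Of the aged arrays, 3 lay below every young and every middle-aged array, but aged 5 lay near the top. The means were 5.68 ± 0.34, 5.70 ± 0.55 and 5.00 ± 0.72, and aged minus young was -0.68 ± 0.32 (95% interval -1.35 to -0.0036, adjusted p = 0.299). It was -1.03 within array set 1, -0.42 within set 2 and -0.93 without the array aged 5 (adjusted p = 0.0885), and -0.44 without aged 1 (adjusted p = 0.494). Hoxd9, which acts in the upper limb segment and the lower trunk, had means of 5.66 ± 0.40, 5.63 ± 0.42 and 5.66 ± 0.26 and a difference of aged from young cells of -0.0031 ± 0.22 (95% interval -0.47 to 0.46). Hoxd13, a gene of the digits, had -0.07 ± 0.15. In cluster B the 5 genes above the filter ranged from -0.16 ± 0.15 (Hoxb7) to 0.0032 ± 0.18 (Hoxb2) in aged minus young. Between them lay Hoxb3 (-0.13 ± 0.16), Hoxb4 (-0.10 ± 0.16) and Hoxb13 (-0.07 ± 0.16), and only Hoxb3, a hindbrain and neck gene, was above the 40th percentile on every array.

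**Figure D4:**
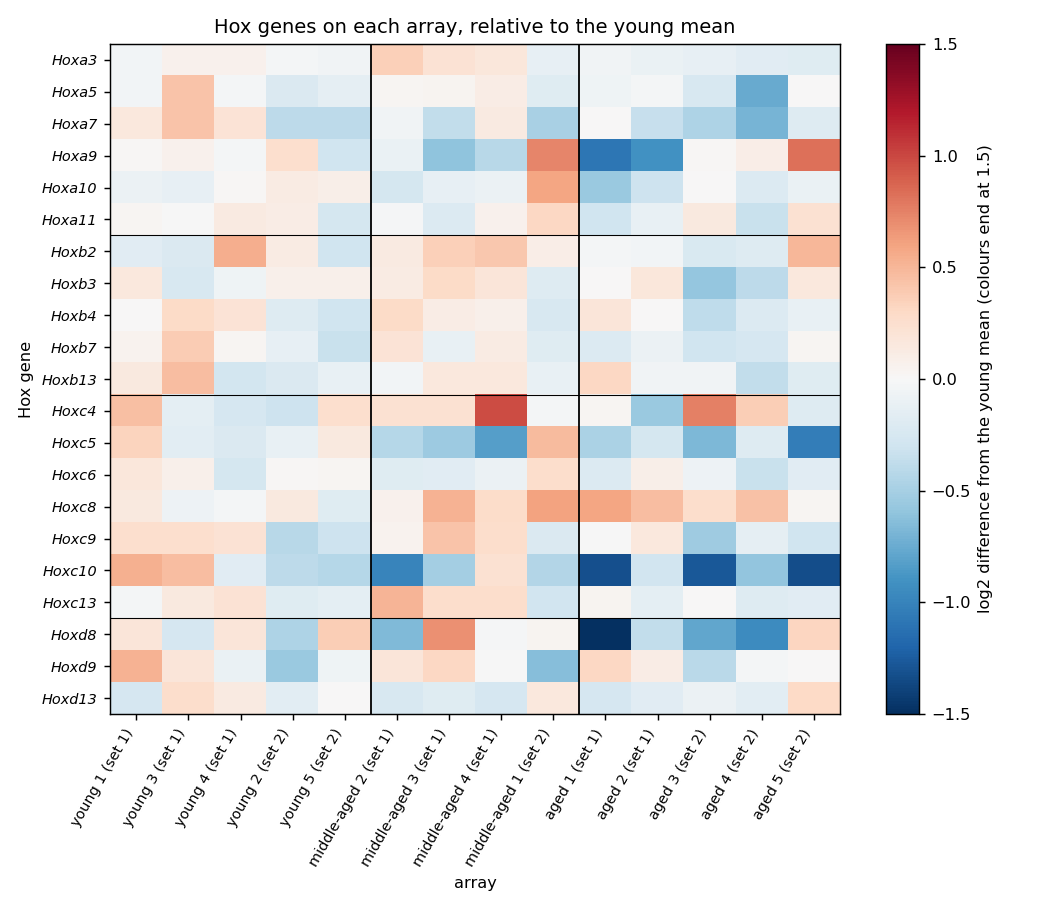
Rows are the 21 Hox genes above the dim filter and columns the 14 arrays, ordered by age and, within an age, by array set; colour gives the log2 difference from the mean of the young arrays, blue lower and red higher, with colours ending at 1.5. Blue prevails in the aged columns, where it runs through all 5 for Hoxa3, Hoxc5 and Hoxc10, Hoxa9 turns from blue to red between the sets of the aged arrays, and Hoxc8 is red in most older columns.

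Across the array sets, 10 of 21 Hox genes were lower in set 2 at all 3 ages and 1, Hoxa10, was higher at all 3. The 10 were Hoxa3, Hoxa5, Hoxa7, Hoxb4, Hoxb7, Hoxb13, Hoxc9, Hoxc10, Hoxc13 and Hoxd9. The share of all genes was not counted, and the sets were found from the values. Whether these counts are particular to Hox genes is therefore not known. For Hoxc9, a gene of the lower thoracic trunk, set 2 minus set 1 was -0.60 in young, -0.47 in middle-aged and -0.40 in aged cells, each wider than its difference between ages. Hoxd9 gave -0.52, -0.81 and -0.35. Middle-aged set 2 was a single array, so its values have no spread of their own.

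Several Hox genes were read by more than 1 probe set above the filter, and these did not always move together. The probe sets of Hoxa5 had aged minus young values of -0.22 and -0.33 and a Pearson correlation over the 14 arrays of 0.63. The first, the main one, shares sequence with other transcripts. Those of Hoxc5 gave -0.53 and -0.31 (r = 0.11), so both were lower in aged cells while single arrays disagreed. For Hoxd8 the main probe set gave -0.68 and the second one, which shares sequence with other transcripts, 0.27 (r = -0.15). For Hoxa9 the values were -0.21 and -0.19 with r = -0.26: the second probe set ranged from 5.00 to 6.05 and had 5.58 on aged 1 and 5.39 on aged 5, where the main one had 8.21 and 10.12. Hoxa3 gave -0.12 and, by a second probe set of shared sequence, 0.06 (r = -0.26). Of the 3 probe sets of Hoxc6, with -0.14, -0.13 and -0.32, the latter pair correlated at 0.76 and each correlated with the main one by -0.08 and 0.04. The one with -0.32 shares sequence with other transcripts. The correlations are over 14 arrays that share their ages and sets, and the main probe sets alone carry the age differences given above.

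TALE homeodomain proteins, the cofactors of Hox proteins, were represented by 7 of 9 listed genes, with Pbx4 above the 40th percentile on 0 arrays. Of the 7, 1 rose and 0 fell in aged against young cells, with a median of 0.13, beside 4.30% of all genes called. Meis2 read 4.59, 4.88, 3.83, 4.65 and 4.93 in the young, 5.86, 4.47, 5.77 and 5.29 in the middle-aged and 5.51, 5.48, 6.62, 5.37 and 5.77 in the aged group. Young and aged values did not overlap, and the difference was 1.17 ± 0.30 (2.25-fold, adjusted p = 0.0369). Its probe set shares sequence, and without such probe sets Meis2 gave 0.49 (adjusted p = 0.218). The call also ended with no dim filter (adjusted p = 0.0531), with the RNA quality covariate (0.99, adjusted p = 0.176), within array set 1 (1.13, adjusted p = 0.107) or set 2 (1.01, adjusted p = 0.396), and without young 1, 3 or 4, middle-aged 4 or aged 3 or 5 (adjusted p = 0.0521 to 0.106). Pbx2 had -0.36 ± 0.13 (adjusted p = 0.136) and Pknox2 0.14 ± 0.21.

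For the complexes that act on Hox chromatin, the counts of genes called were near the share of all genes. The MLL complex, which maintains active Hox genes, had 0 of 10 called in aged against young cells (median -0.19), beside 4.30% of all genes. In middle-aged against young cells 1 fell, where 2.97% of all genes were called. This was Rbbp5, a core subunit, with 7.16 ± 0.26, 6.31 ± 0.38 and 6.81 ± 0.32 at the 3 ages and a middle-aged minus young difference of -0.85 ± 0.21 (adjusted p = 0.0406). The call ended without any of the 5 young arrays, without middle-aged 1, 3 or 4 or aged 2 (adjusted p = 0.0506 to 0.151), and within array set 1 (-0.64, adjusted p = 0.101) or set 2 (-1.28, adjusted p = 0.666). Ash2l, another core subunit, had 0.13 ± 0.14 and menin's gene Men1 -0.39 ± 0.13 (adjusted p = 0.124) in aged minus young. Of 15 measured Polycomb repressors and H3K27 demethylases, which keep Hox genes silent or release them, 0 were called in any comparison (median of aged minus young -0.20), beside 4.30%, 2.97% and 0% of all genes in aged against young, middle-aged against young and aged against middle-aged cells, so the count is near that of all genes. The smallest p values in the F test were those of Cbx8 (-0.44 ± 0.16), Cbx7 (0.34 ± 0.19) and Phc1 (-0.16 ± 0.14), all subunits of Polycomb repressive complex 1.

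Retinoic acid, the signal that switches on anterior Hox genes in the embryo, was measured through 13 of 14 listed genes. Of these, 2 rose and 0 fell in aged and 1 rose in middle-aged against young cells (medians 0.25 and 0.19), beside 4.30% and 2.97% of all genes called. Of the 2, Crabp1 passed the dim filter only through the group where it was high. Cyp26a1, the enzyme that clears retinoic acid and is itself a target of its receptors, read 7.48, 6.52, 7.17, 7.76 and 8.40 in the young, 9.90, 9.48, 9.39 and 9.79 in the middle-aged and 9.66, 9.10, 9.13, 10.44 and 10.36 in the aged group. All older arrays lay above all young ones. It rose by 2.27 ± 0.33 in aged (4.84-fold, adjusted p = 0.00101) and by 2.17 ± 0.35 in middle-aged cells (adjusted p = 0.00343). The aged rise was 1.91 within array set 1 and 2.52 within set 2, where the call ended. It was 2.25 ± 0.43 with the RNA quality covariate (adjusted p = 0.0145). The unequal-variance test ended both calls (adjusted p = 0.0604 and 0.103), as did set 2 alone for middle-aged cells (2.44, a single array). The tenocyte marker list rose at the same ages, as given above, and its part in this rise was not tested.

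The promoter of Cyp26a1 is shown because it holds the known kind of retinoic acid response element, a direct repeat. It lies at chr19:37697558-37697857 on the plus strand (GRCm38.p6), and capitals mark both copies of the half-site, which read AGTTCA on the opposite strand. 
Cyp26a1 promoter: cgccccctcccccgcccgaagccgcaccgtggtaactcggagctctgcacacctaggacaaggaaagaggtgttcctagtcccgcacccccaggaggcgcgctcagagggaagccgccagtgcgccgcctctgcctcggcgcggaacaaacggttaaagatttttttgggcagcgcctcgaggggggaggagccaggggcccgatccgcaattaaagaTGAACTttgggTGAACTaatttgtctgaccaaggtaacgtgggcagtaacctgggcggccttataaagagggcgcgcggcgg
The direct repeat of AGTTCA with 5 bases between the copies, searched on both strands, occurred in 8 of 32851 promoters of this length (0.0244%) and in none of the matched Hox promoters. A single AGTTCA, which the repeat contains, occurred in 14% of promoters and in those of Hoxc4 and Hoxd13 among the Hox genes above the filter. The letters TGATTNAT, a motif of joint Hox and Pbx binding, occurred in 3.22% of promoters and in those of 2 matched Hox genes, 0 of them above the filter. A match is a run of letters and not a measured site.

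Crabp1, a cytoplasmic carrier of retinoic acid, rose from 3.48 ± 0.24 to 4.37 ± 0.38 in aged cells (0.89 ± 0.23, adjusted p = 0.0376), with 3.65 ± 0.52 in middle-aged ones. It was above the 40th percentile on 6 arrays, the 5 aged ones and middle-aged 3, so it passed the filter only through the group where it was high and its difference is from a dim young level, with no fold given. The call ended without any of the 5 young arrays, without middle-aged 4 or without aged 1, 2, 3 or 5 (adjusted p = 0.0502 to 0.0890), with the RNA quality covariate (1.06, adjusted p = 0.0597) and within array set 1 (0.78, adjusted p = 0.146) or set 2 (1.09, adjusted p = 0.312). Rxrg, a nuclear partner of the retinoic acid receptors, had 0.76 ± 0.23 and did not pass (adjusted p = 0.0858).

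Of the limb patterning factors, Tbx4 was lower in aged and Meox1 higher in middle-aged cells. Of 12 measured genes, 0 rose and 1 fell in aged against young cells (median -0.05), and 1 rose in middle-aged against young cells, beside 4.30% and 2.97% of all genes called, so the counts say nothing particular about the list. Tbx4, a T-box factor that marks the hindlimb, read 4.57, 4.16, 5.79, 4.72 and 4.62 in the young, 3.92, 3.71, 4.15 and 3.87 in the middle-aged and 3.62, 3.66, 3.35, 4.10 and 3.75 in the aged group. By this main probe set every young array lay above every older one, while 4 of the 5 aged arrays lay below the 40th percentile. The probe set was above it on 8 arrays, the 5 young ones, middle-aged 1 and 3 and aged 4, so it passed the filter only with the group where it was high, and no fold is given against the dim aged level. Tbx4 fell by 1.08 ± 0.24 in aged cells (adjusted p = 0.0177), with -0.86 ± 0.26 in middle-aged ones (adjusted p = 0.0932). The fall was -1.39 within array set 1 and -0.66 within set 2, where the call ended. It was -1.20 with the RNA quality covariate (adjusted p = 0.0492) and -0.60 as the mean of its probe sets (adjusted p = 0.0646). Tbx4 had 2 probe sets of its own. By that mean the second, above the 40th percentile on 9 arrays, fell less than the main one. Leaving out each array in turn gave -1.23 to -0.82.

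The other genes that mark limb identity were not called. Pitx1, which acts upstream of Tbx4 in the hindlimb, stood at 4.31 ± 0.33, 4.17 ± 0.23 and 4.24 ± 0.26 and differed by -0.07 ± 0.18 between aged and young cells. Tbx5, the forelimb counterpart, stood at 4.94 ± 0.29, 5.08 ± 0.40 and 4.92 ± 0.24 and differed by -0.03 ± 0.19. Pitx1 lay above the 40th percentile on 11 arrays and Tbx5 on all 14, so a hindlimb and a forelimb marker were both read above that level. Meox1, a homeobox gene of the somite, rose by 0.98 ± 0.25 in middle-aged cells (adjusted p = 0.0481), from 4.72 ± 0.42 to 5.69 ± 0.47, with 5.29 ± 0.31 in aged ones. That call ended with no dim filter (adjusted p = 0.0610), without young 1, 2, 3 or 5, middle-aged 1, 3 or 4 or aged 1, 4 or 5 (adjusted p = 0.0552 to 0.164), and within array set 1 (0.64, adjusted p = 0.197) or set 2 (1.69, adjusted p = 0.288). The unequal-variance test ended the calls of Meis2, Crabp1 and Tbx4 in aged cells (adjusted p = 0.141, 0.122 and 0.214) and of Rbbp5 and Meox1 in middle-aged cells (adjusted p = 0.204 and 0.230). The call of Rbbp5 also ended with trended and robust variance (adjusted p = 0.0556), and those of Rbbp5 and Meox1 with every probe set by itself (adjusted p = 0.0537 and 0.0624). Meox1 further lost its call without probe sets of shared sequence (adjusted p = 0.0517) and in a fit of only the groups compared (adjusted p = 0.0572). Shox2, a factor of the upper limb segment, had 0.70 ± 0.20 in aged minus young (adjusted p = 0.0629).

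**Figure D5:**
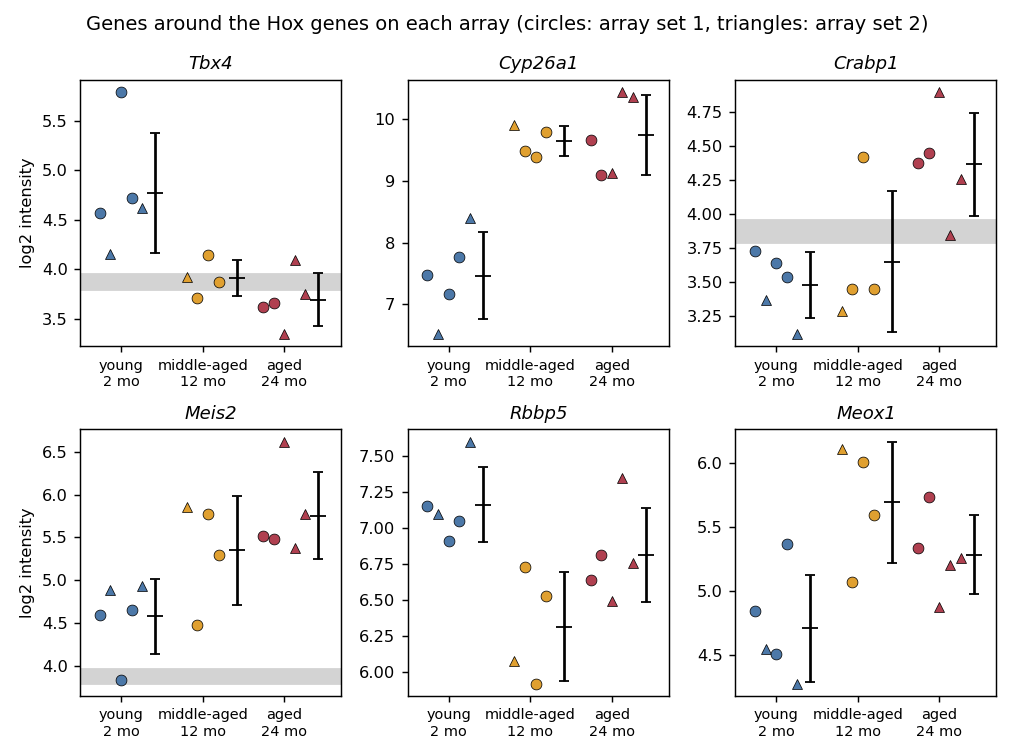
Each panel shows a gene of the fixed lists that was called in at least 1 comparison, on the 14 arrays by age in log2 intensity, with circles for array set 1 and triangles for set 2; bars give mean and SD, and the grey band is the range of the 40th percentile over arrays (3.79 to 3.96). All young Tbx4 values lie above all older ones, all young Cyp26a1 values lie below all older ones, and Crabp1 lies under the band on all young arrays.

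Gdf11 and the genes of its receptors and effectors were not called. Of 7 measured genes 0 rose and 0 fell in any of the pairwise comparisons, with a median of aged minus young of -0.14, beside 4.30%, 2.97% and 0% of all genes called in aged against young, middle-aged against young and aged against middle-aged cells. With so few genes, a count of 0 is near the share of all genes. Gdf11 read 4.72, 4.74, 5.04, 4.79 and 4.59 in the young, 4.96, 5.04, 4.92 and 4.48 in the middle-aged and 4.45, 4.93, 4.31, 4.34 and 4.79 in the aged group, with overlapping ages and a difference of -0.21 ± 0.16 between aged and young cells (adjusted p = 0.562). The receptor genes Acvr1b and Acvr2b had 0.61 ± 0.17 (adjusted p = 0.0578) and -0.30 ± 0.15 (adjusted p = 0.318), and the effector Smad2 had -0.56 ± 0.25 (adjusted p = 0.268). Mstn, the closest relative of Gdf11, had no probe set of its own.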

How the data were processed

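RNA of sorted muscle precursor cells was measured on 14 arrays, grouped by the ages in the labels. The authors made 1 value per probe set with RMA, per the submitters' processing notes, which give no version. What they deposited are linear intensities with array medians of 19.0 to 21.2; log2 was taken and nothing normalized again. Arrays have no counting depth, and their number limits the precision.

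Of 45101 probe sets, 64 controls, 932 with several genes and 9160 without a gene were left out, using a platform annotation of 2016. The dim filter kept 23887 probe sets, and the kept probe set of highest mean stood for its gene. All 14 arrays entered 1 fit by age group in limma 3.58.1 (R 4.3.3), with Benjamini-Hochberg adjustment over 13579 genes and calls at an adjusted p under 0.05. Errors are SD for means and limma's moderated SE for differences. Array measures were compared by exact permutation tests.

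Array values are given for the 8 Hox genes with the smallest F test p, and list genes are named when called or among the 3 smallest F test p of their list. Hoxa9 was added after its values were seen. The members and lists were chosen with earlier results of these data known. Alternatives covered the filter, probe set choice, normalization, variance model, weights, an RNA quality covariate, array set, replicate block, samples in the fit, test, fold and each array left out. The array sets are the sign of principal component 1 of the values after centring by age. They come from the values that were tested, so a p-value within a set is not an independent test. Such p-values are given only beside calls that ended there. The model was tested on simulated data. Promoters came from RefSeq (GRCm38.p6).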

Additional observations from a re-analysis of the deposited data

Results flagged for a closer look

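Single arrays stood apart from the rest of their age group in 7 of the 141 groups tested (47 genes at 3 ages), by the gap to the nearest other value relative to the group's range; chance flags about 1 in 20 groups. Among Hox genes, Hoxa5 read 7.32 on young 3, where the other young arrays ran from 6.68 to 6.86. Hoxb2 read 4.40 on aged 5, with the other aged arrays at 3.67 to 3.87. Hoxd13 also stood apart on aged 5, at 4.20 beside 3.66 to 3.82. Of the related genes, the MLL complex subunit Ash2l read 6.10 on aged 2 (others 5.67 to 5.77) and the cofactor Pbx2 4.17 on young 5 (others 4.51 to 4.60). The retinoic acid carrier Crabp1 read 4.42 on middle-aged 3 (others 3.29 to 3.45). CD29's gene Itgb1 read 8.95 on middle-aged 2 (others 8.17 to 8.24).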

How the results depend on the processing

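The count of Hox genes called stayed at 0 under 30 of 32 alternatives in aged against young cells, under all 32 alternatives for middle-aged against young and for aged against middle-aged cells, under all 30 for the difference of the steps and under 28 of 29 for the F test. Within array set 1 it was 1 in aged against young cells and 1 in the F test, where the gene called in the first was Hoxa9. The sets were found from the values and Hoxa9 followed them, so this call is not evidence of an age change. With each array left out in turn, the count in aged against young cells ran from 0 to 1, the 1 being Hoxc10 without the array aged 2. No result changed its direction among those called.

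The lists of related genes held 7, 10, 15, 13, 12, 7 and 2 measured genes. The count of these called in aged against young cells was 4, near the share of all genes (4.30%). It was 2 with the filter at the 60th percentile, 1 above the 40th percentile on all arrays, 2 with the RNA quality covariate, 2 within array set 1, 0 within array set 2 and 0 with the unequal-variance test. Without single arrays it ran from 2 to 6, with 2 without young 1, 3 or 4, middle-aged 4 or aged 5. Of the 4 in the main fit, Crabp1 and Tbx4 passed the dim filter only with the group where they were high. At the 60th percentile Crabp1 and Tbx4 were themselves filtered out, and above the 40th percentile on all arrays Meis2 was too. The array sets hold fewer arrays, and the cause of the other shifts was not tested.

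The count over all genes in aged against young cells, 584, ran from 388 to 608 without single arrays and from 21 (within set 2) to 976 (array set as a term) otherwise. In middle-aged against young cells, 403 became 155 to 458 without single arrays and 0 to 1153 otherwise, and the F test's 565 became 282 to 603 and 7 to 1007. For the difference of the steps, 0 became 7 with the array set as a term and 179 with array weights. Since the sets were found from these values, counts with the array set as a term do not rest on an independent covariate. The labels give no pairing by replicate number, and none was seen in the deviations of the arrays. Those of the same number correlated by -0.48 to 0.26 (median -0.06, 13 pairs) and those of other numbers by -0.45 to 0.49 (median 0.04, 52 pairs). Such correlations cannot exclude a pairing. With the replicate block, Hox calls stayed at 0 in every comparison, and calls over all genes were 489 in aged and 194 in middle-aged against young cells. The block also ended the calls of Meis2 (adjusted p = 0.0805), Rbbp5 (adjusted p = 0.0684) and Meox1 (adjusted p = 0.128).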

Other observations

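Noncoding transcripts of the Hox clusters were mostly not listed with a probe set of their own: of 14 listed names, 2 were above the dim filter. Hoxb5os, the opposite-strand transcript of Hoxb5, exceeded the 40th percentile on each of the 14 arrays, with 5.04 ± 0.33 (SD, n = 5) in young, 5.25 ± 0.19 (n = 4) in middle-aged and 4.99 ± 0.38 (n = 5) in aged cells, while the probe set of Hoxb5 itself was above it on 0 arrays. The aged minus young difference of Hoxb5os was -0.05 ± 0.20 (adjusted p = 0.930). Hoxd3os1 read 3.60, 2.99, 3.21, 3.35 and 3.31 on young and 4.49, 3.58, 4.56, 3.35 and 4.32 on aged arrays. It was above the 40th percentile on 4 of the 14: middle-aged 3 and aged 1, 3 and 5. Hoxd3os1 thus passed the filter only through older arrays, and its difference is from a dim young level. Its difference of 0.77 ± 0.25 did not pass (adjusted p = 0.106), and its second probe set was above on 0 arrays with -0.04. Hoxa11os was above on 0 and 1 arrays by its 2 probe sets. Of the 2 probe sets shared by Hoxd4 and Hoxd3, 1 lay above the 40th percentile on 4 arrays, between 3.54 and 4.11, and the other on 0, between 3.05 and 3.53. The probe set shared by Hoxb8 and Hoxb7 lay above it on 0.

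In the list of limb and muscle patterning factors, Lbx1, a homeobox gene of migrating limb muscle precursors, stood at 6.97 ± 0.43, 6.74 ± 0.43 and 6.21 ± 0.31 at the 3 ages (aged minus young -0.76 ± 0.23, adjusted p = 0.0835). It was named after its values were seen. The young arrays of set 1 read 7.30, 7.29 and 7.25 and those of set 2 6.41 and 6.60, so the aged range of 5.77 to 6.61 reached the lower young arrays.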
